A study of Rattus norvegicus with 5 samples.

Results

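The mitochondrial solute carriers, the Slc25a family, were followed in the cells of rat retina at 4 points of early diabetes. The members were every gene whose symbol starts with Slc25a, apart from the iron carriers Slc25a28 and Slc25a37, which gave 44 of the 25399 genes in the count tables. These proteins sit mostly in the inner mitochondrial membrane and exchange nucleotides, phosphate, carboxylic acids, amino acids and cofactors between the cytosol and the matrix. They link glycolysis, respiration and biosynthesis, and photoreceptors are known for a high demand on both glycolysis and respiration. Transcripts say nothing of transport rates, which were not measured.

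The series profiled whole retinas of SD rats by droplet single-cell RNA sequencing, in which each captured molecule carries a cell barcode and a unique molecular identifier (UMI). Controls, labelled 0 weeks, had received citrate buffer, and diabetic rats had received 45 mg/kg streptozotocin, a toxin of pancreatic beta cells, and then a diet rich in fat and sugar for 2, 4 or 8 weeks. One library per group was used, which for the control group was control replicate 2, while control replicate 1 was not analysed here. No test between groups was therefore possible, intervals cover counting error only, and time cannot be told apart from animal, age, diet or preparation.

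After filtering (at least 200 genes and at most 20% mitochondrially encoded UMIs), the libraries held 6992 control cells and 11110, 7735 and 4358 cells at 2, 4 and 8 weeks, with median depths of 902 to 1422 UMIs per cell. Between 13 and 70 barcodes were shared by any 2 libraries. Clusters were named from marker genes, and 6 classes had at least 50 cells in each library: rods (3142 to 7974 cells per library), Müller glia (170 to 409), bipolar cells (228 to 975), amacrine cells (152 to 348), cones (53 to 172) and microglia (75 to 208). The 10 rod markers, among them rhodopsin, summed to 52153 to 95064 CPM in rods (CPM is the UMI sum of a gene in a class and library, scaled to a common class total). They summed to 17902 to 28049 in cones, and reached 22381 in bipolar cells at 8 weeks, 14504 in microglia at 2 weeks and 12193 in Müller glia at 2 weeks, against 2065 to 2492 in control cells of those 3 classes. Levels below are in CPM. UMIs were counted once per molecule and not divided by gene length.

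Of the 44 carriers, 2 had no UMI in any kept cell (Slc25a31 and Slc25a54) and 7 others had 1 to 18 UMIs in all. In rods 39 members had a UMI, 17 reached a mean of 20 CPM and 23 a mean of 5 CPM. The carriers together made up 2587 to 3239 CPM in rods, and Slc25a5, Slc25a4 and Slc25a3, the 3 with the highest means over the 4 libraries, gave 59.2 to 66.5% of those UMIs. The same sum was 3680 to 4017 CPM in amacrine cells, 2880 to 3640 in cones, 2895 to 3220 in Müller glia, 2738 to 2977 in bipolar cells and 1469 to 1710 in microglia. Carrier transcripts per UMI were thus lowest in microglia and highest in amacrine cells in each of the 4 libraries.

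The upstream sequences of Slc25a12, Slc25a13 and Slc25a33 are shown, the first 2 because these aspartate-glutamate carriers were low in rods at the same times, and the third because it stood highest in rods and holds a searched motif. Each run is the 250 bases before the annotated start, 5′ to 3′ on the gene's strand, from RefSeq (GRCr8): Slc25a12 at chr3:76599537-76599786, Slc25a13 at chr4:35328361-35328610 and Slc25a33 at chr5:165502974-165503223, all on the minus strand. Capitals mark the palindromic E box CACGTG.
Slc25a12: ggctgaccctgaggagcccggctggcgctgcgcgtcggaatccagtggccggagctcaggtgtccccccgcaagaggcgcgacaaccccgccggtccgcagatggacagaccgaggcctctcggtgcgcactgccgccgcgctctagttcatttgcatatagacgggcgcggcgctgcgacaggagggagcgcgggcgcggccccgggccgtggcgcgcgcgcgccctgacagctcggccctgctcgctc
Slc25a13: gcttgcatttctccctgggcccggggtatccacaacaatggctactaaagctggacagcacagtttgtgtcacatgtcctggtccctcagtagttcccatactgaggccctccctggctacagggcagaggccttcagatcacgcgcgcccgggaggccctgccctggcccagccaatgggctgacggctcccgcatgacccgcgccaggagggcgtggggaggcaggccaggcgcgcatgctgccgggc
Slc25a33: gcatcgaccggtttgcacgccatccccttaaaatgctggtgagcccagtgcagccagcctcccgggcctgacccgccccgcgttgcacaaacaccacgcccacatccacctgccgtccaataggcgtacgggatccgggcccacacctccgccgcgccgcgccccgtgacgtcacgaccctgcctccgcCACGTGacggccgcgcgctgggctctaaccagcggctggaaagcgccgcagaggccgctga
These windows are GC-rich, with 74.0, 66.0 and 70.0% G or C, against a median of 51.2% over all promoter windows. RefSeq windows were found for 38 of the 44 carriers. Of 33469 windows of this length, 5.59% held the E box on either strand, as did 4 of the 38 carriers (Slc25a2, Slc25a31, Slc25a33 and Slc25a51); in Slc25a33 it lies from 61 bases before the start. The amino acid response element TGATGNAA was found in 0 of 38 carriers and 3.4% of all windows, the palindromic NRF1 sequence in 0 of 38 and 3.75%, and the estrogen-related receptor sequence TCAAGGTCA in 0 of 38 and 0.388%. These are matches of letters in a short window and show no binding.

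**Figure D1:**
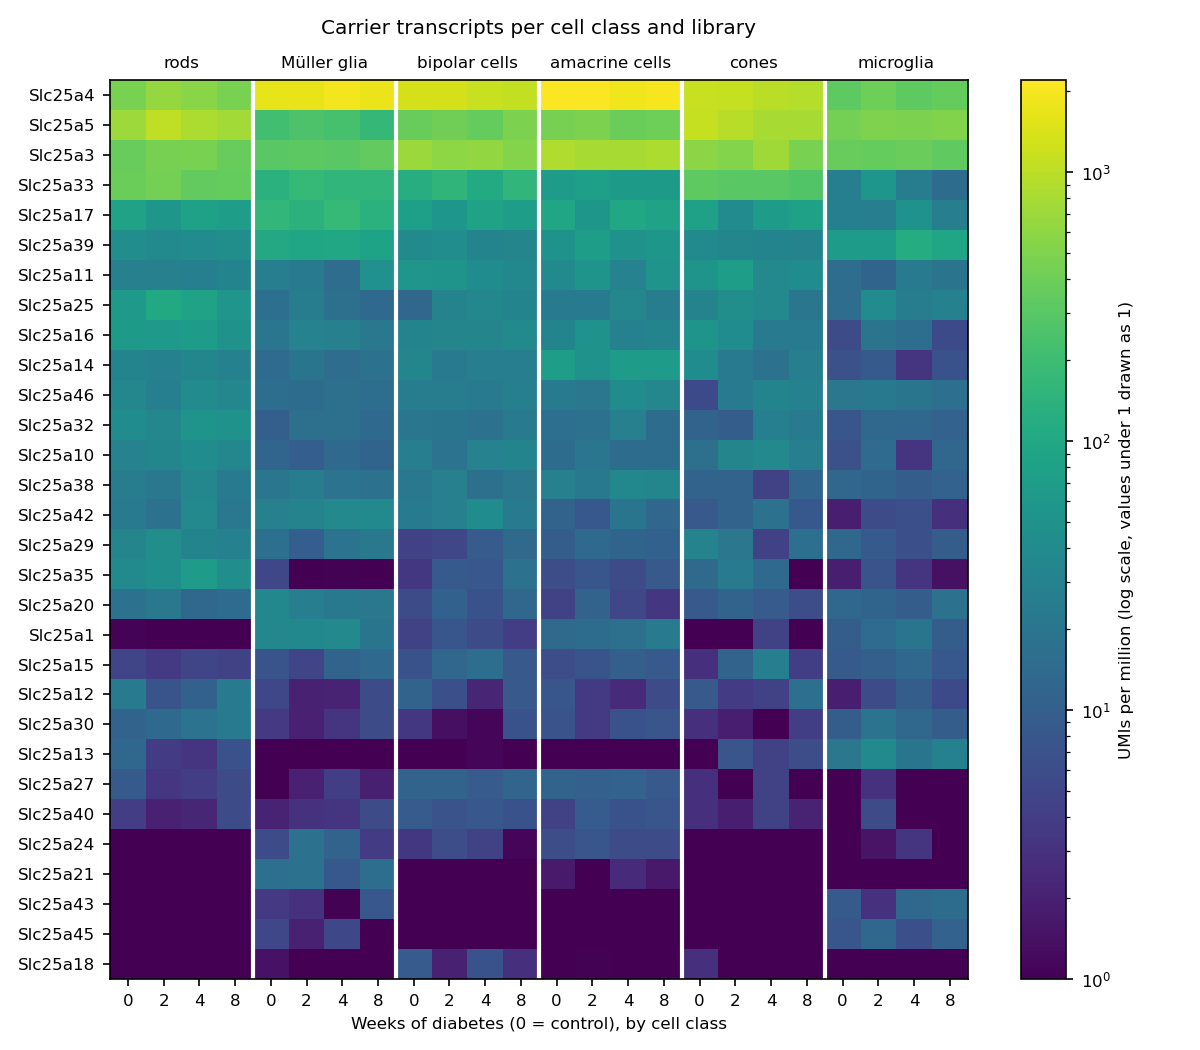
CPM (UMIs scaled to the class total, colour, log scale) of the carriers that reached a mean of 5 CPM in at least 1 of 6 cell classes (rows, 1 member not drawn), in each class and library (columns, weeks of diabetes with 0 for control). Slc25a4, Slc25a5 and Slc25a3 have the highest mean over the 4 libraries in each class drawn, and Slc25a33 is high in rods and cones, at 395 CPM in control rods against 367 for Slc25a3.

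The cell classes differed in which ADP/ATP translocase they carried. Slc25a4 and Slc25a5 encode isoforms of the protein that trades matrix ATP for cytosolic ADP. In rods Slc25a5 was the more abundant in every library, at 710, 1046, 841 and 753 CPM in control and at 2, 4 and 8 weeks, against 470, 647, 560 and 467 CPM for Slc25a4. Müller glia had the opposite order, with a mean of 1756 CPM of Slc25a4 and 219 CPM of Slc25a5 over the 4 libraries. In Müller glia Slc25a4 stood 2.64- to 3.80-fold above its level in rods and Slc25a5 3.30- to 4.48-fold below it, in each of the 4 libraries. Amacrine cells held the most Slc25a4 (mean 2014 CPM, 3.25- to 4.47-fold above rods), followed by Müller glia, bipolar cells (1231 CPM), cones (1049 CPM) and, below rods, microglia (352 CPM). The ranges of amacrine cells and Müller glia overlapped, as did those of bipolar cells and cones. In cones the rod marker sum given above stands beside these values, and its part in them was not tested. Slc25a3, which carries the phosphate that ATP synthesis consumes, varied less: its mean was 843 CPM in amacrine cells, 611 in bipolar cells, 572 in cones, 416 in rods, 361 in microglia and 318 in Müller glia.

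Slc25a33, a carrier of pyrimidine nucleotides, had its highest levels in rods and then in cones. Rods held 395, 446, 344 and 355 CPM and cones 329, 311, 309 and 270 CPM. All other classes were lower in every library: their means were 157 CPM (Müller glia), 136 (bipolar), 69.7 (amacrine) and 31.8 (microglia). The level in rods was 5.19- to 5.73-fold that in amacrine cells and 7.62- to 22.1-fold that in microglia. Free RNA estimated from rod genes made up 6.74 to 38.2% of UMIs in Müller glia, amacrine cells and microglia. The same estimate was 14.8 to 110% in bipolar cells and 52.0 to 102% in cones. The part of rod RNA in the cone level of Slc25a33 was not tested.

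Slc25a35, grouped here with the carriers of carboxylic acids, was also highest in rods, with 39.4, 46.5, 68.7 and 44.9 CPM. Its mean was 12.8 CPM in cones, 9.60 in bipolar cells, 7.14 in amacrine cells, 3.5 in microglia and 1.54 in Müller glia. Slc25a25, a calcium-regulated ATP-magnesium/phosphate carrier, stood at 54.5 to 108 CPM in rods, 3.66- to 4.86-fold above Müller glia and 2.04- to 4.60-fold above amacrine cells. Slc25a16, linked to coenzyme A uptake, Slc25a32, the folate carrier, and Slc25a10, the dicarboxylate carrier, were each more than 2-fold higher in rods than in Müller glia and than in microglia in all 4 libraries.

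The citrate carrier Slc25a1, which exports citrate for fatty acid synthesis, went the other way. It was near 0 in rods (mean 0.61 CPM), while Müller glia held 35.7, 36.0, 37.0 and 19.9 CPM and amacrine cells 14.2, 15.3, 17.1 and 22.9 CPM. These were the only class differences of at least 4-fold above rods in all 4 libraries with at least 10 UMIs each. The rod sums behind this were 7, 3, 2 and 4 UMIs, so the size of the difference is poorly fixed. Slc25a21, the oxodicarboxylate carrier, was likewise seen mainly in Müller glia (mean 14.8 CPM) and had 1 UMI in all rods together. Slc25a13 (citrin) was at 27.6 CPM in microglia and 6.78 in rods, and at or near 0 in amacrine and bipolar cells and in Müller glia. Slc25a14, an uncoupling protein relative, was highest in amacrine cells (65.8 CPM against 31.4 in rods).

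**Figure D2:**
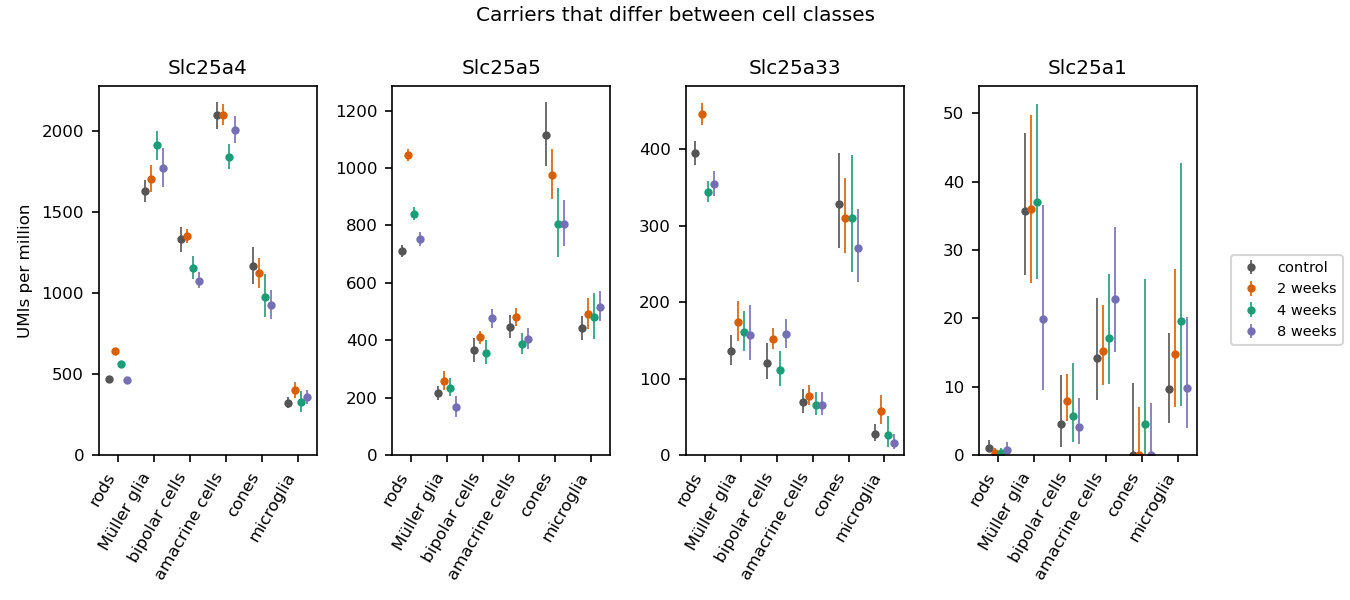
CPM of Slc25a4, Slc25a5, Slc25a33 and Slc25a1 (vertical axes) in 6 cell classes (horizontal axes), 1 point per library with its exact Poisson interval for counting error. Slc25a4 is highest in amacrine cells and Müller glia, Slc25a5 in rods and cones, and Slc25a33 is above 250 CPM in rods and cones alone among the classes drawn.

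In rods, no carrier with a mean of at least 20 CPM differed 2-fold from control at any diabetic time. The limit is set on the mean of the 4 libraries, so a carrier that is lower in some of them can miss it: Slc25a12, at 23.6 CPM in control rods, averaged 16.5 and is described further on. All 17 members above the limit stayed within 2-fold at 2, 4 and 8 weeks, where 1.87, 1.16 and 0.354% of all rod genes at that level were at least 2-fold higher and 9.92, 3.86 and 0.202% at least 2-fold lower. The median log2 ratio of the 17 carriers was 0.00 at 2 weeks, 0.24 at 4 weeks and -0.01 at 8 weeks, beside -0.27, 0.03 and 0.01 over all 5937 or 5938 rod genes used. At 2 weeks 9 of 17 carriers were above control, at 4 weeks 12 and at 8 weeks 8. The rod markers themselves summed to 95064 CPM at 2 weeks against 52153 in control, and the median mitochondrial share of rods was 6.55% against 2.92%. With mitochondrially encoded UMIs left out of the totals the 2-week ratio of Slc25a5 was 0.62 against 0.56, and that of Slc25a12 was -1.63 against -1.69. The part of the rod marker shift in the ratios was not tested. Scaling by TMM, which sets the bulk of genes equal, gave the 2-week rods a log2 factor of -0.37 relative to control, so that every 2-week ratio in rods was higher by this amount under TMM.

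Over all rods, the carriers that serve ATP synthesis stood together above control at 2 and 4 weeks. Log2 ratios of Slc25a5 were 0.56 (interval 0.51 to 0.61) at 2 weeks, 0.24 (0.19 to 0.30) at 4 weeks and 0.09 (0.02 to 0.15) at 8 weeks. Slc25a4 had 0.46, 0.25 and -0.01, and Slc25a3, from 367, 461, 469 and 367 CPM, had 0.33, 0.35 and 0.00. Slc25a25 went from 63.4 CPM in control to 108 at 2 weeks, 84.6 at 4 weeks and 54.5 at 8 weeks. Its 2-week log2 ratio of 0.77 (0.60 to 0.94) was the highest of the 17 at that time, and under TMM it was 1.14 and passed 2-fold. Slc25a33 differed little, with log2 ratios of 0.17, -0.20 and -0.15.

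Rods of the libraries lay largely in different clusters, so the same ratios were taken within clusters. Cluster 2 held 50.8% of control rods and 63.7% of 8-week rods, clusters 1 and 3 held 56.0 and 33.8% of 2-week rods, and cluster 0 held 72.4% of 4-week rods. Clusters 0 to 3 had at least 100000 UMIs in each library. Within them the 2-week ratio of Slc25a25 was 0.48 to 1.58, above 0 in 4 of 4. That of Slc25a5 was 0.11 to 0.33, also above 0 in 4 of 4 but smaller than over all rods. For both carriers the interval lay above 0 in clusters 0, 1 and 2. In cluster 3 it included 0 (-0.04 to 1.10 for Slc25a25 and -0.007 to 0.23 for Slc25a5). For Slc25a4 and Slc25a3 the 2-week ratio was slightly below 0 in 1 cluster each (-0.0022 and -0.05 there). The 2-week interval of Slc25a3 included 0 in each of clusters 0 to 3, and that of Slc25a4 in clusters 1, 2 and 3. At 4 weeks Slc25a5 was at -0.05 to 0.11 within these clusters, each interval including 0. Slc25a4 was then at 0.0007 to 0.38, with intervals above 0 in clusters 0 and 2. Slc25a3 was at -0.03 to 0.24, with an interval above 0 in cluster 3. Cluster 4, with 29.6% of control rods, had 90 cells at 2 weeks. Its 2-week ratios were 1.16 (-0.09 to 2.09) for Slc25a25, 0.78 (0.41 to 1.11) for Slc25a5, 0.10 (-0.48 to 0.58) for Slc25a4 and -0.11 (-0.83 to 0.47) for Slc25a3. Rod clusters 21 and 23 were too small for such ratios.

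**Figure D3:**
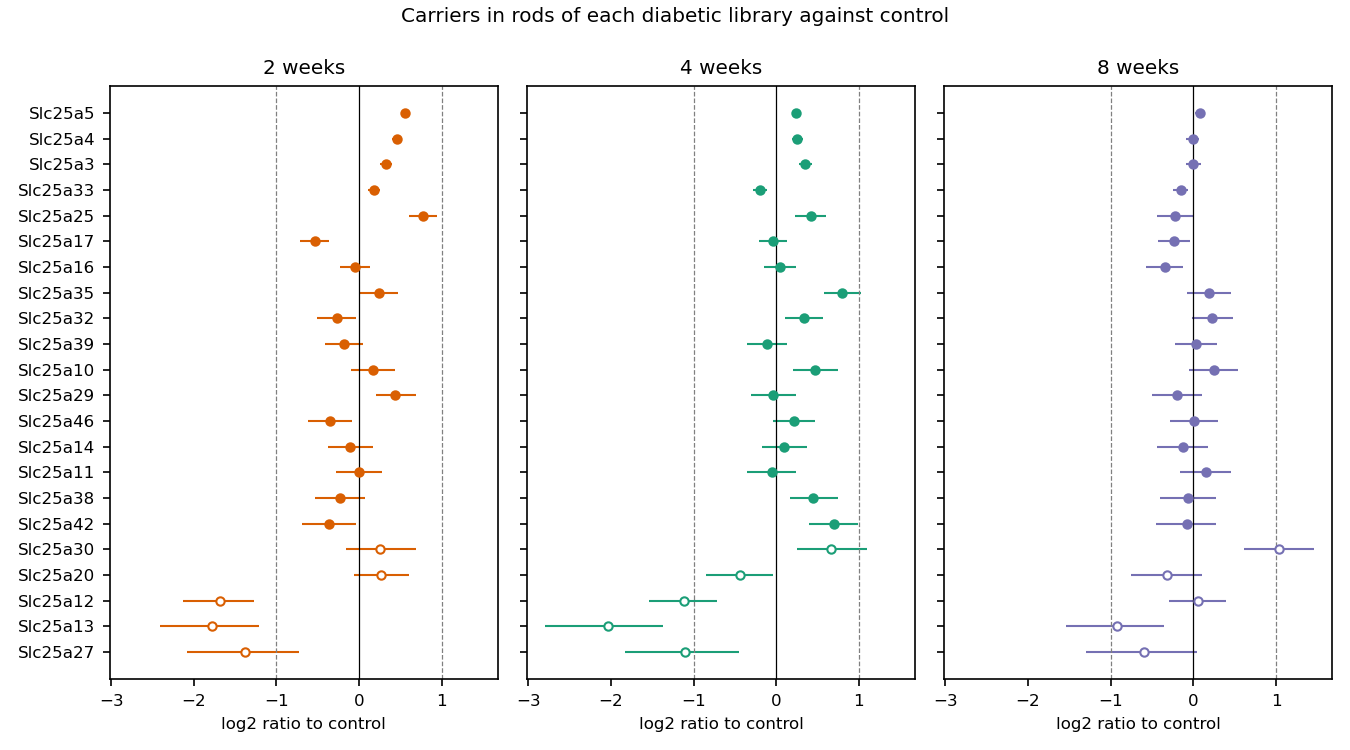
Log2 ratio to control (horizontal axis) of 22 of the 23 carriers with a mean of at least 5 CPM in rods at 2, 4 and 8 weeks, with exact binomial intervals for counting error. Filled points have a mean of at least 20 CPM, and dashed lines mark 2-fold. Filled points stay inside the dashed lines, while Slc25a12, Slc25a13 and Slc25a27 lie below -1 at 2 and 4 weeks and Slc25a30 lies at 1.03 at 8 weeks.

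Among carriers of carboxylic acids, Slc25a35 was at 0.80 (0.58 to 1.03) over all rods at 4 weeks. Slc25a10, from 30.1 to 41.8 CPM, was then at 0.47 (0.21 to 0.74). Within rod clusters 0 to 3 these ratios were 0.44 to 1.31 and 0.07 to 0.48. There the interval of Slc25a35 lay above 0 in cluster 1 alone, from 5 control UMIs. Each interval of Slc25a10 included 0. Slc25a11, the oxoglutarate-malate carrier, stood at 28.9, 28.9, 27.8 and 32.1 CPM, a range inside counting error. Of the cofactor carriers, Slc25a17, the peroxisomal carrier of coenzyme A and related nucleotides, was at 85.2, 58.7, 82.7 and 72.6 CPM. Its 2-week log2 ratio was -0.54 (-0.71 to -0.36), but -0.17 under TMM. Within clusters it was 0.14 (-0.68 to 0.96) and 0.12 (-0.65 to 1.15) in clusters 0 and 1 against -0.99 (-2.30 to -0.09) and -0.82 (-1.23 to -0.37) in clusters 2 and 3. Slc25a42, a coenzyme A carrier, had 22.9, 17.8, 37.2 and 21.7 CPM, hence 0.69 (0.40 to 1.00) at 4 weeks. Within clusters 0 to 3 this 4-week ratio was 0.50 to 1.07, with an interval above 0 in cluster 2 alone. Slc25a42 was at -0.36 at 2 weeks, which became 0.01 under TMM and was 0.22 to 0.57 within clusters 0 to 3, above 0 in 4 of 4. Slc25a29, a carrier of basic amino acids, was at 0.44 (0.20 to 0.68) at 2 weeks and close to control later. Within clusters 0 to 3 its 2-week ratio was -0.005 to 1.82, with an interval above 0 in cluster 0 alone. Slc25a39 (glutathione), Slc25a14 (uncoupling relative) and Slc25a11 had intervals that include 0 at all 3 times.

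Below 20 CPM, both aspartate-glutamate carriers were lower at 2 and 4 weeks. These proteins export aspartate from the matrix in exchange for glutamate and belong to the malate-aspartate shuttle, which brings reducing equivalents from glycolysis into mitochondria. Slc25a12 (aralar) stood at 23.6 CPM in control rods (155 UMIs), 7.28 at 2 weeks (65 UMIs), 10.8 at 4 weeks (75 UMIs) and 24.4 at 8 weeks (127 UMIs). Its log2 ratios were -1.69 (-2.13 to -1.27), -1.11 (-1.54 to -0.71) and 0.05 (-0.30 to 0.40), so that the 8-week library was level with control. Slc25a13 stood at 13.2, 3.81, 3.18 and 6.91 CPM, from 87, 34, 22 and 36 UMIs, with log2 ratios of -1.78 (-2.41 to -1.21), -2.03 (-2.80 to -1.37) and -0.92 (-1.54 to -0.36). Slc25a27, an uncoupling protein relative, had 8.81, 3.36, 4.05 and 5.76 CPM and log2 ratios of -1.38, -1.11 and -0.60. With these, 3 of the 23 carriers at a mean of 5 CPM or more were at least 2-fold lower at 2 weeks and 3 at 4 weeks, where 14.3 and 6.59% of all rod genes at that level were (1.92 and 2.14% were at least 2-fold higher). At 2 weeks the carriers' count is thus near the background of rods.

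Within rod cluster 2, Slc25a12 stood at 24.6, 21.4, 21.8 and 25.1 CPM, from 101, 4, 12 and 106 UMIs. The interval of its 2-week ratio there, -2.10 to 1.20, holds both 0 and the ratio over all rods, so that no difference was detectable in that cluster at this depth. In cluster 1 the 2-week ratio of Slc25a12 was -1.41 (-2.76 to 0.71) and in cluster 3 it was -1.18 (-2.25 to 0.13), with 4 and 9 control UMIs. Cluster 0 held 9 UMIs in control and 0 at 2 weeks, with an interval that lies below -0.89. Cluster 4 held 32 and 1 UMIs, with an interval of -6.14 to 1.79. Slc25a13 was below control at 2 and 4 weeks in 4 of 4 of clusters 0 to 3, each from few UMIs (0 to 23 at 2 weeks). Control sums there were 5, 3, 61 and 3 UMIs. Each 2-week interval of Slc25a13 included 0, and at 4 weeks only that of cluster 2 lay below 0 (-5.11 to -0.12). Slc25a27 was above control in 2 of these clusters at 2 weeks and below in 2, from 0 to 15 UMIs. Its intervals there included 0 at 2 and at 4 weeks. Slc25a30, an uncoupling protein relative, was the 1 carrier at least 2-fold higher in rods at this lower limit, at 11.7, 14.0, 18.7 and 24 CPM and a log2 ratio of 1.03 (0.62 to 1.47) at 8 weeks, where 1.05% of all rod genes were at least 2-fold higher and 0.627% lower.

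Over all rods, the enzymes of the malate-aspartate shuttle did not follow the aspartate-glutamate carriers. Mdh1, the cytosolic malate dehydrogenase, stood at 402, 881, 736 and 444 CPM in rods, with log2 ratios of 1.13, 0.87 and 0.14. The mitochondrial enzymes Mdh2 (195, 309, 293 and 204 CPM) and Got2 (201, 269, 256 and 192 CPM) were also higher at 2 and 4 weeks, and Got1, the cytosolic aspartate aminotransferase, was at 0.13, -0.08 and -0.07. Of these 4 enzymes 1 was at least 2-fold higher at 2 weeks and 0 were lower, where 1.87 and 9.92% of all rod genes were. Ratios of these enzymes within clusters were not taken, so the contrast with the carriers was not tested there.

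**Figure D4:**
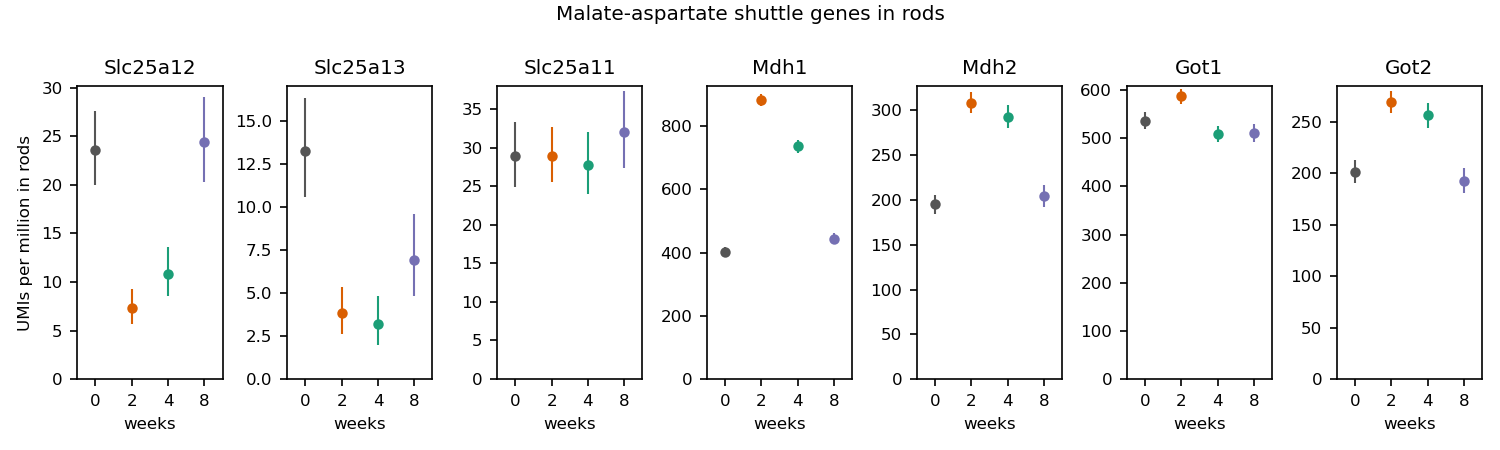
CPM in rods (vertical axes, each from 0 to its own maximum) of 3 carriers and 4 enzymes of the malate-aspartate shuttle by weeks of diabetes (0 is control), with exact Poisson intervals for counting error. Slc25a12 and Slc25a13 are lowest at 2 and 4 weeks, Mdh1, Mdh2 and Got2 are highest then, and Slc25a11 is level.

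At 2 and 4 weeks the median ratio of the carriers used in rods was also below that of the nuclear-encoded respiratory chain. Of 87 nuclear-encoded subunits of the respiratory complexes and ATP synthase, 74 were used in rods. Their median log2 ratio was 0.81 at 2 weeks, 0.43 at 4 weeks and 0.07 at 8 weeks, and 22 of the 74 were at least 2-fold higher at 2 weeks, beside 1.87% of all rod genes. Rod cluster 3, with the subunit Ndufa4 among its leading genes, held 33.8% of 2-week rods and 5.73% of control rods. Ratios of the subunits within clusters were not taken. The 4 nucleotide and phosphate carriers used (Slc25a3, Slc25a4, Slc25a5 and Slc25a25) had medians of 0.51, 0.30 and 0.00. The 6 used carriers of cofactors and pyrimidine nucleotides had medians of -0.23, 0.00 and -0.12. The 13 mitochondrially encoded genes had medians of 0.90, -0.18 and 0.33, beside the mitochondrial shares of rods given above. In the other 5 classes the medians of the respiratory subunits lay between -0.19 and 0.34.

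**Figure D5:**
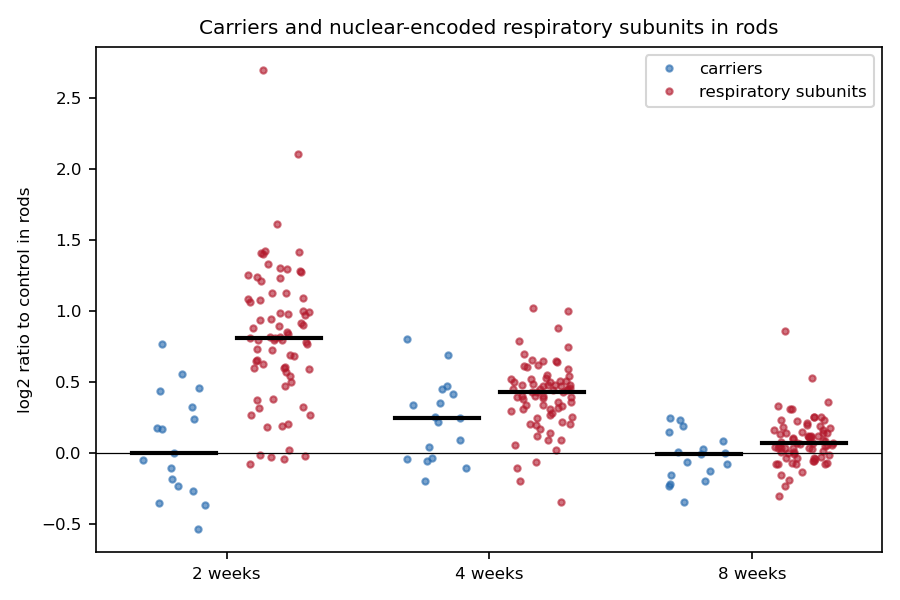
Log2 ratio to control in rods (vertical axis) of each used carrier (17 points per time) and each used nuclear-encoded respiratory subunit (74 points per time) at 2, 4 and 8 weeks, with black bars at the medians. At 2 weeks the carriers centre on 0.00 and the subunits on 0.81, and at 8 weeks the medians are -0.01 and 0.07.

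Other genes around the carriers were taken from fixed lists. Single genes named from a list were picked for large ratios in rods and do not stand for the list. Of 12 used genes for import of carriers (the TIM22, small TIM and TOM machinery), 0 differed 2-fold at any time, with medians of 0.06, 0.18 and -0.05; of all rod genes 1.87, 1.16 and 0.354% were at least 2-fold higher and 9.92, 3.86 and 0.202% lower at 2, 4 and 8 weeks. Of 6 used regulators of mitochondrial biogenesis, 1 was at least 2-fold lower at 2 and at 4 weeks, the coactivator Ppargc1a (38.7, 18.2, 16 and 51.3 CPM). Beside the folate carrier Slc25a32, whose rod level was 42.7, 35.4, 53.9 and 50.1 CPM, the mitochondrial folate enzyme Mthfd2 was at 314, 14.1, 101 and 238 CPM and Shmt2 at 91.0, 27.5, 57.7 and 57.2 CPM. Mthfd2 is also on the list of targets of ATF4, a transcription factor of the amino acid and stress response, of which 9 of 10 used members were at least 2-fold lower in rods at 2 weeks, 7 at 4 weeks and 1 at 8 weeks, beside 9.92, 3.86 and 0.202% of all rod genes. Asns, asparagine synthetase, stood at 265, 9.75, 18.7 and 211 CPM. Rod clusters 2 and 4 have Mthfd2, Asns and Trib3 among their leading genes. These clusters held 50.8 and 29.6% of control rods, 1.68 and 1.13% at 2 weeks, 5.68 and 3.79% at 4 weeks, and 63.7 and 12.0% at 8 weeks. Ratios of the ATF4 targets within clusters were not taken. Beside the citrate carrier, acetyl-CoA carboxylase Acaca stood at 38.4, 9.75, 9.83 and 40.7 CPM in rods.

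Outside rods, few carriers passed 2-fold and all on small counts. In Müller glia 0 of 12 used carriers did at any time, where 2.8, 1.93 and 2.0% of all Müller genes used were at least 2-fold higher and 1.53, 2.24 and 1.02% lower at 2, 4 and 8 weeks. Slc25a4 in Müller glia stood at 1630, 1707, 1913 and 1774 CPM, with log2 ratios of 0.07, 0.23 (0.14 to 0.32) and 0.12. In amacrine cells 0 of 12 did, where 2.02, 1.69 and 0.853% of genes were higher and 1.16, 1.5 and 0.592% lower. Slc25a17 was lower in amacrine cells at 2 weeks too (91.1 against 59.6 CPM, -0.61 with an interval of -1.01 to -0.21). It was also lower then over all rods, though above 0 in 2 of 4 rod clusters, and, below, in cones. In bipolar cells Slc25a17 was at -0.43 (-0.84 to 0.01) and in microglia at -0.06 (-1.01 to 0.82).

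In bipolar cells 1 of 15 used carriers was at least 2-fold higher at each time, where 2.75, 3.17 and 7.7% of genes were higher and 1.45, 2.06 and 1.47% lower. This was Slc25a25, at 12.7 CPM in control (11 UMIs) and 30.8, 35.7 and 31.9 CPM at 2, 4 and 8 weeks (90, 31 and 55 UMIs). Its log2 ratios of 1.22 (0.37 to 2.33), 1.45 (0.46 to 2.64) and 1.28 (0.38 to 2.41) share the 1 control sum. With cells of up to 40% mitochondrial UMIs kept, the ratios at 2 and 8 weeks were 0.59 and 0.18 and no carrier passed 2-fold, and with doublets kept they were 0.75 and 0.50. The class pools 5 clusters in unequal shares: cluster 18, led by Pcp2, Car8 and Trpm1 among others, held 6 of 228 control cells but 89 of 975, 18 of 276 and 64 of 327 cells at 2, 4 and 8 weeks. Within clusters 6, 12 and 13 the 2-week ratio of Slc25a25 was 0.04 (-1.20 to 1.71), 1.72 (-0.06 to 5.15) and 1.72 (0.24 to 4.27), from 6, 2 and 3 control UMIs, and clusters 18 and 20 had 0 control UMIs. Of bipolar barcodes, 63.7 to 86.0% per library lay above 20% mitochondrial UMIs. Rod markers in bipolar cells summed to 2492, 11507, 5429 and 22381 CPM, rods hold more Slc25a25 than bipolar cells, and the part of rod RNA in the ratio was not tested.

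In cones 2 carriers passed 2-fold, both downwards, but 0 did with at most 10% mitochondrial UMIs or with cells thinned to 1000 UMIs, and 1 with doublets kept. Slc25a17 stood at 82.9 CPM in control (29 UMIs) and 40.5 at 2 weeks (21 UMIs), a log2 ratio of -1.02 (-1.92 to -0.17), and was at 69.2 and 81.1 CPM later. Slc25a16 went from 54.3 CPM (19 UMIs) to 22.9 at 8 weeks (11 UMIs), at -1.22 (-2.46 to -0.10), which was -0.22 at the 10% limit. The free RNA estimate from rod genes ran from 52.0 to 102% of cone UMIs and was not subtracted. These were 1 of 9 used carriers at 2 weeks and 1 of 7 at 8 weeks, and 0 of 5 passed 2-fold at 4 weeks. Of all cone genes used, 2.48, 3.97 and 1.09% were at least 2-fold lower at 2, 4 and 8 weeks and 2.72, 1.95 and 2.86% higher. Slc25a5 in cones was 1114, 976, 803 and 805 CPM, lower at 4 and 8 weeks (-0.47 at both, intervals below 0), whereas its ratio over all rods was above 0 at these times, though below 0 in 3 of 4 rod clusters at 8 weeks. That contrast between the classes was not tested.

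Microglia lay in clusters 10 and 16, and cluster 16, led by Ccl4, Ccl3, Cxcl2 and Il1b, held 77 of 208 control cells and 101 of 207, 7 of 75 and 52 of 169 cells at 2, 4 and 8 weeks. In microglia 2 of 8 used carriers were at least 2-fold higher at 2 weeks, where 6.82% of microglial genes were at least 2-fold higher and 2.57% lower. None of 6 did at 4 weeks nor of 8 at 8 weeks, where 4.14 and 1.69% of genes were higher and 8.01 and 1.86% lower. Slc25a25 went from 15.5 CPM (16 UMIs) to 41.4 (28 UMIs), a log2 ratio of 1.40 (0.48 to 2.40), and was at 26.2 and 29.4 CPM later. Slc25a33 went from 28.1 to 57.7 CPM (29 and 39 UMIs), at 1.03 (0.31 to 1.78), but became -2.85 once free RNA was subtracted. Rod markers in microglia were 14504 CPM at 2 weeks against 2065 in control, and Slc25a33 is a rod-rich transcript. After the same subtraction Slc25a25 was at 1.16. Within clusters 10 and 16 the 2-week ratio of Slc25a25 was 2.22 (-0.29 to 5.04) and 0.93 (-0.07 to 2.06), and that of Slc25a33 was 2.98 (1.75 to 4.43) and 0.07 (-0.87 to 1.02). Over whole classes, Slc25a25 was thus above control at 2 weeks beyond counting error in rods, bipolar cells and microglia, though in bipolar cells it was at 0.59 with the 40% mitochondrial limit. Within clusters its interval lay above 0 in bipolar cluster 13 but included 0 in the other bipolar clusters and both microglial clusters. Free RNA estimated from rod genes was 30.4% of UMIs in bipolar cells and 38.2% in microglia at 2 weeks, against 14.8 and 11.6% in control. Slc25a25 was at 0.46 (-0.60 to 1.68) in cones and -0.05 in amacrine cells, and in Müller glia it was below 20 CPM and at 0.63 (-0.23 to 1.51).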

How the data were processed

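The deposited matrices hold raw UMI counts per gene and cell barcode, made by the authors with Cell Ranger 3.0.1 on the Rnor_6.0 build per the submitters' processing notes, and no normalization is recorded per the file headers. Gene identities are those of the files. Matrices of 4 of the 5 samples were used. The members and gene lists were chosen with earlier results of these data known. Values of 1 member are not reported here, though counts over members include it.

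Barcodes needed at least 200 genes and at most 20% mitochondrially encoded UMIs. The top-scoring 0.8% of barcodes per 1000 by Scrublet (scanpy 1.11.5) were removed as doublets. Clustering (2000 variable genes less the carriers among them, 30 principal components, 15 neighbours, Leiden resolution 1.0 in leidenalg 0.10.2) gave 25 clusters. A cluster took the class of its best marker list at a score of at least 0.25 and a gap of 0.2 or a ratio of 2 to the second; these thresholds were set after the scores were seen, and clusters 11, 17, 22 and 24 stayed unnamed. Rebuilt class names may differ from the authors'. Unnamed clusters held 1.73 to 3.76% of the cells of a library.

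UMIs were summed per library and class and scaled to the class total (CPM). Log2 ratios to control have 0.5 added to each sum. Ratios carry exact conditional binomial and levels exact Poisson 95% intervals, which cover counting error only. A gene entered a comparison when its 4 libraries averaged 20 CPM or more and the pair held 30 UMIs or more. With 1 library per group there is no test; at least 2-fold from control is called. On counts simulated for rods at 2 weeks against control (5705 genes), 95.2% of intervals covered the true ratio. The simulated counts held counting error only. This checks the interval calculation and says nothing of differences between animals or clusters. Named genes were the 2-fold members in each class, the 6 most abundant in rods and those at least 4-fold above rods. Other members illustrate a group. From each fixed list of partner genes, up to 4 used ones with the largest absolute ratio in rods could be named. Such genes are the extremes of their list in these data. Any further gene was chosen after its values were seen. Alternatives were other mitochondrial and UMI limits, doublets kept, other resolutions, TMM (edgeR 4.0.16, R 4.3.3), totals without mitochondrial genes, thinned cells, subtracted free RNA, and other CPM and fold thresholds. Leaving out the 2-week library and ratios within clusters of rods, bipolar cells and microglia were added after seeing the data.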

Additional observations from a re-analysis of the deposited data

How the results depend on the processing

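No paired analysis was possible because each group had 1 library and the replicate numbers pair no samples. Of the counts of carriers at least 2-fold from control under alternatives, 93 of 126 stayed within 1.5 times the value reported and 33 did not. In rods, where the count was 0 at each time, TMM scaling gave 1 at 2 weeks and 1 over all times (Slc25a25), a mean of at least 5 CPM gave 3, 3 and 1 at 2, 4 and 8 weeks and 4 over all times, and a 1.5-fold threshold gave 1 at 2 weeks, 2 at 4 weeks and 3 over all times. In Müller glia (0 reported) subtracting free RNA gave 1 (Slc25a5) and 1.5-fold gave 3, and in amacrine cells (0 reported) a limit of 10% mitochondrial UMIs gave 1 and 1.5-fold gave 3. In bipolar cells (1 reported) the 40% mitochondrial limit, doublets kept, a mean of at least 100 CPM and a 3-fold threshold each gave 0, thinning to 1000 UMIs and a mean of at least 5 CPM each gave 2, and 1.5-fold gave 3. With a limit of 10% the count in bipolar cells stayed 1, but the gene was Slc25a33. In cones (2 reported) leaving out the 2-week library and keeping doublets each gave 1, and the 10% mitochondrial limit, thinning, a mean of at least 100 CPM and 3-fold each gave 0. In microglia (2 reported) leaving out the 2-week library, thinning, a mean of at least 100 CPM and 3-fold each gave 0, at least 1000 UMIs and TMM each gave 1, and 1.5-fold gave 5. Fewer genes are tested at 100 CPM; the cause of the other shifts was not tested.

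Of 601 values of single carriers under alternatives, 55 had another sign than the value reported, of which 31 belong to ratios whose interval already included 0 and 24 to ratios whose interval excluded 0. The 24 are listed here. Under TMM the 2-week ratio of Slc25a42 in rods was 0.0061, and with free RNA subtracted that of Slc25a33 in microglia was -2.85. The others came from ratios within rod clusters over at least 30 UMIs in the pair, many from few UMIs in one library. For Slc25a5 the 8-week ratio was -0.25, -0.16 and -0.29 in clusters 0, 1 and 3 and the 4-week ratio -0.051 in cluster 3. Slc25a33 was at 0.026 at 4 weeks and 0.49 at 8 weeks in cluster 3, Slc25a3 at -0.055 at 2 weeks and -0.034 at 4 weeks in cluster 1, and Slc25a4 at -0.0022 at 2 weeks in cluster 3. Slc25a17 was at 0.14 at 2 weeks and 0.022 at 8 weeks in cluster 0 and at 0.12 at 2 weeks in cluster 1. Slc25a42 was at 0.39, 0.24 and 0.57 at 2 weeks in clusters 1, 2 and 3, and Slc25a30 at -0.14 at 4 weeks in cluster 2. In cluster 4 the 2-week ratio was -0.21 for Slc25a33, -0.11 for Slc25a3, -2.69 for Slc25a35 (0 UMIs at 2 weeks) and 0.55 for Slc25a42, the 4-week ratio of Slc25a4 was -0.17 and the 8-week ratio of Slc25a17 was 0.17. Subtracting free RNA was not run for rods, its source, nor for bipolar cells and cones, where the estimate exceeded 50% in at least 1 library. Below about 30 UMIs in a pair of libraries, a 2-fold difference of a carrier lies within counting error or close to it.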
